A study of Mus musculus with 2 samples.

Results

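The Sfmbt2 miRNA cluster is a dense array of small hairpin genes inside 1 intron of Sfmbt2, a gene of the Polycomb group that acts in repression of transcription. Its genes were found by a rule on place alone: all microRNA (miRNA) genes of the GENCODE M21 annotation on the plus strand of chromosome 2 between 10370000 and 10600000 (mm10). This gave 119 of the 2202 annotated miRNA genes in the tables. The locus itself was picked with earlier results of these libraries known. Short RNAs in the size range of mature miRNAs were sequenced from adrenal glands of B6CASTF1/J females aged 36 days, F1 hybrids of a laboratory strain with a wild-derived one. There was 1 group of 2 libraries with no other tissue, age, sex or treatment, so the comparisons were those between genes and those between the libraries. The labels number the libraries as biological replicates and number the females apart, yet both carry a single donor identifier, so the spread between them may not be a spread between animals.

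A miRNA is cut from a hairpin and guides a silencing complex to messages that pair with its seed, the bases near its 5′ end. The Sfmbt2 cluster is found in rodents, is known as imprinted with transcription from the paternal allele, and is best known from placenta and early embryo-derived cells. Its hairpins belong to the related families miR-466, miR-467, miR-669 and miR-297, which are rich in alternating U and G or C and A. The genes have multiplied by tandem duplication, so many copies are almost the same. A read that fits several copies is assigned to none of them in these tables. Nor were reads assigned to alleles, so whether the cluster is imprinted in the adrenal gland was not examined.

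The same family names occur at 10 annotated genes on other chromosomes, and 8 of these have a mature sequence in the RefSeq table (GRCm38.p6), in which none of the 119 cluster genes was matched. The 8 are shown because their repeated letters show the kind of sequence that has to be told apart. Each is written 5′ to 3′ with the seed, bases 2 to 8, in capitals.
mmu-miR-466i-3p: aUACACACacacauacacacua
mmu-miR-466j: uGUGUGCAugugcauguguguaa
mmu-miR-466k: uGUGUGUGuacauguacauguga
mmu-miR-466q: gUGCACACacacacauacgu
mmu-miR-467f: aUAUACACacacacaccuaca
mmu-miR-467g: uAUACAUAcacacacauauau
mmu-miR-467h: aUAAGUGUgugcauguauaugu
mmu-miR-669n: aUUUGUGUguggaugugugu

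The 8 seeds were all different. None of the 8 whole sequences occurred in a cluster hairpin, but their seed letters did. The letters AUACAUA of the miR-467g seed stood on the sense strand of 78 cluster hairpins (65.5%) and of 6.49% of all annotated hairpins. The letters GUGUGCA of the miR-466j seed stood in 62 cluster hairpins (52.1%) and in 4.81% of all. UACACAC of the miR-466i-3p seed stood in 60 cluster hairpins (50.4%) and in 8.17% of all. All 7 cluster genes described below as detected held UACACAC, while 5 of them held GUGUGCA and 5 held AUACAUA. At the other end, UAAGUGU of the miR-467h seed stood in 1 cluster hairpin, that of Mir467e. A match in a hairpin is a description of its letters and does not say that the mature product starts there.

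The 119 genes lay between 10465287 and 10518279, a span of 53.0 kb. All of them fell in the intron between exons 11 and 12 of a full-length Sfmbt2 transcript (10461473 to 10523944), and none overlapped an exon of any annotated Sfmbt2 transcript. By name 23 were Mir466 genes, 14 Mir467, 29 Mir669 and 5 Mir297, and 48 were predicted genes with Gm names. The 10 genes named Mir467a-1 to Mir467a-10 marked the tandem array, with a median distance of 2462 bases from one copy to the next. The array spanned 27.0 kb and held 65 of the 119 genes. Another 21 genes lay before it and 33 after it.

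Sense reads of miRNA genes totalled 5397603 in replicate 1 and 3029977 in replicate 2. Levels are given as normalised read counts (CPM), the sense count for each 1000000 of these. Mature miRNAs are of nearly equal length, so reads were not divided by the length of the hairpin. The floor for a count of 0 was set at 3 counts, which is 0.556 CPM in the deeper replicate 1 and 0.990 CPM in replicate 2, so a gene at 0 may lie anywhere under it. These limits and all intervals cover counting error only, and the limits hold only for reads that fit 1 place. Reads that fitted several places were 28.5% and 30.6% of each library, and how many came from this cluster is not known. Among the markers chosen for the gland, Mir375 of endocrine cells had 28922 and 22246 CPM and Mir7b had 2569 and 3010 CPM. Markers of other cells and nearby tissues also had counts. In replicate 1 and replicate 2, Mir122 of hepatocytes had 1503 and 146 CPM, Mir126a of endothelium 133209 and 69285 CPM, and the 4 kidney markers summed to 168 and 98.0 CPM. The 3 endocrine markers summed to 31636 and 25370 CPM and the 4 blood markers to 1602 and 1519 CPM. The 2 smooth muscle markers went the other way, with 30240 and 59237 CPM. So did Mir7b of the endocrine markers and Mir204 of the kidney markers, the latter with 36.3 and 40.6 CPM. The blood sum hid opposite shifts. Mir144 had 436 and 169 CPM and Mir451a 722 and 389 CPM, while Mir142 had 356 and 772 CPM and Mir223 88.4 and 189 CPM. The part of these differences in the values below was not tested.

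Of the sense reads counted for miRNA genes, a small share came from the cluster, nearly all of it from a few Mir467 and Mir669 genes. Reads that fitted several of its copies are not in this share, so the cluster's counts are a lower limit. The total also leaves out reads that fitted several places, so the share itself may be too low or too high. Its 119 genes held 3658 sense counts in replicate 1, or 0.0678% of the sense reads of miRNA genes (95% Wilson interval 0.0656 to 0.0700%). In replicate 2 they held 2191, or 0.0723% (0.0693 to 0.0754%). The mean share was 0.0700% ± 0.00321 (SD, n = 2). The 7 genes with at least 10 counts in both libraries, called detected here, were 5.88% of the cluster, beside 15.4% of all annotated miRNA genes. A further 9 genes had fewer counts, and 103 had 0 counts in both libraries. At least 1 count was found for 13.4% of the cluster genes and for 34.9% of all genes.

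**Figure D1:**
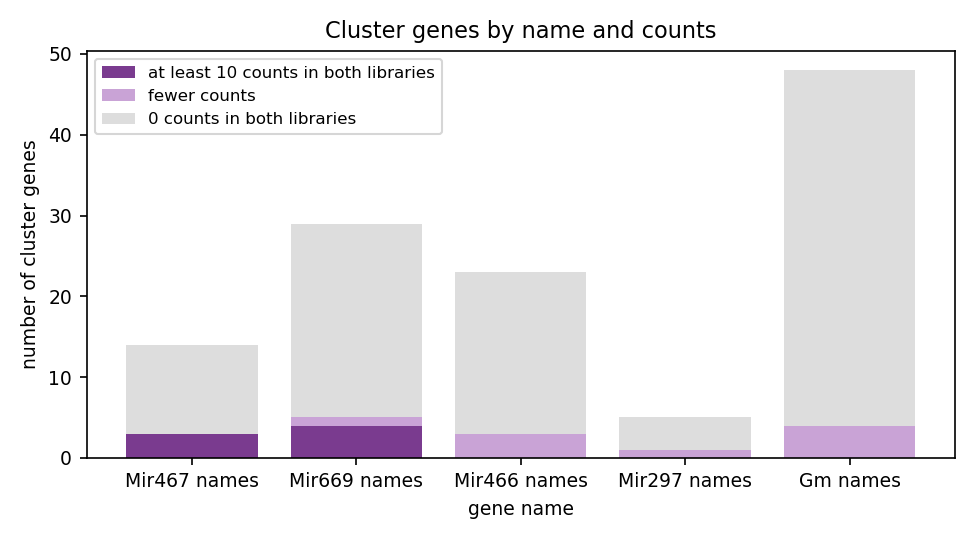
Number of cluster genes (vertical axis) by gene name (horizontal axis), split into genes with at least 10 counts in both libraries, genes with fewer counts and genes with 0 counts in both. The 7 detected genes are 3 of 14 Mir467 and 4 of 29 Mir669 genes, and none of the Mir466, Mir297 or Gm genes.

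Mir467d, an miR-467 gene after the array (10507630 to 10507714), had the highest mean level in the cluster. It had 1819 counts or 337 CPM (95% Wilson interval 322 to 353) in replicate 1 and 638 counts or 211 CPM (195 to 228) in replicate 2. The mean was 274 ± 89.4 CPM (SD, n = 2). It ranked 126 among all genes in replicate 1 and 133 in replicate 2. The genes closest to it in mean CPM were Mir30c-2, Mir30b and Mirlet7a-1 just above (274, 282 and 287 CPM) and Mir485, Mir434 and Mir193b just below (271, 269 and 235 CPM). They were alike in counted reads only. Reads that fitted several places are in none of these counts, so the amounts of the miRNAs may differ.

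Mir467e (10505721 to 10505807), its neighbour on the 5′ side among the detected genes, was the leading gene of the cluster in replicate 2. It had 788 counts or 146 CPM (136 to 157) in replicate 1 and 794 counts or 262 CPM (244 to 281) in replicate 2. The mean of 204 ± 82.1 CPM overlapped the range of Mir467d. For each read of Mir467e there were 2.31 reads of Mir467d in replicate 1 and 0.804 in replicate 2, a comparison within each library that needs no scaling. The order of these leading genes was therefore not the same in both libraries.

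Mir669c (10509296 to 10509404) and Mir669o (10514300 to 10514395) are miR-669 genes and also lay after the array. Mir669c had 444 counts (82.3 CPM) in replicate 1 and 229 counts (75.6 CPM) in replicate 2, a mean of 78.9 ± 4.72 CPM. Mir669o had 292 counts (54.1 CPM) and 255 counts (84.2 CPM), a mean of 69.1 ± 21.3 CPM. Their ranges overlapped, and Mir669c was the higher of the pair in replicate 1 and the lower in replicate 2. Both stood below Mir467e in each library.

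The other 3 detected genes lay before the array and had lower levels. Mir467c (10473931 to 10474027) had 183 counts (33.9 CPM) and 106 counts (35.0 CPM), a mean of 34.4 ± 0.764 CPM. Mir669l (10468971 to 10469068) had 104 counts (19.3 CPM) and 102 counts (33.7 CPM), a mean of 26.5 ± 10.2 CPM. Mir669e (10467495 to 10467613) had 14 counts (2.59 CPM) and 46 counts (15.2 CPM), and its mean of 8.89 ± 8.90 CPM was no larger than its SD. Mir467c was above Mir669l, and Mir669l above Mir669e, in each library. Of the 21 pairs of detected genes, 19 kept their order from one library to the other, and the other 2 were Mir467d with Mir467e and Mir669c with Mir669o.

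**Figure D2:**
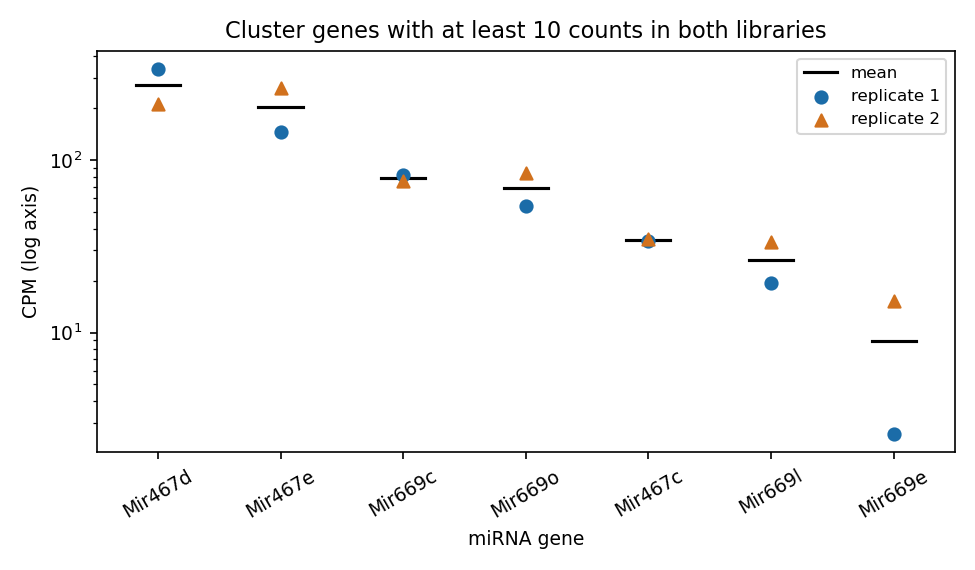
Level in CPM on a log axis (vertical) of the 7 detected cluster genes (horizontal), with a point for each library and a bar for the mean of the 2. Mir467d and Mir467e exchange the first place between the libraries, and Mir669e, the lowest, has its points at 2.59 and 15.2 CPM.

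These few genes held nearly all counted reads of the cluster. Mir467d alone held 49.7% of them in replicate 1 and 29.1% in replicate 2. With Mir467e the share was 71.3% and 65.4%, and all 7 detected genes held 99.6% and 99.0%. By name, the 14 Mir467 genes held 76.3% and 70.2% of the cluster's counts, all from Mir467d, Mir467e and Mir467c. The 29 Mir669 genes held 23.4% and 29.3%.

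The miR-466 and miR-297 families were almost without counted reads. The 23 Mir466 genes together had 6 counts in each library. Mir466n had 5 and 5 counts, Mir466b-3 had 1 count in replicate 1 only, and Mir466g had 1 in replicate 2 only. The 5 Mir297 genes had 2 counts, both of Mir297b in replicate 1. Mir669h had 3 and 10 counts (1.93 ± 1.94 CPM). By the lower of its counts, Mir466n was the gene just outside the limit for detection and Mir669e the gene just inside. Of the 48 Gm genes, 4 had counts. Gm22239 had 1 and 4 counts, and Gm22072, Gm26491 and Gm25263 had 1 count each over both libraries. Levels of 1 to 3 counts lie at or under the floor used for a count of 0, so they do not show that these genes differed from the genes at 0.

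Counted reads came from both edges of the cluster and from none of the array. The 21 genes before the array held 303 and 254 counts, or 8.28% and 11.6% of the cluster. The 33 genes after it held 3355 and 1937 counts, or 91.7% and 88.4%. The 65 genes of the array, among them Mir467a-1 to Mir467a-10, Mir467b and 9 of the Mir669a copies, had 0 counts in both libraries. No gene of the cluster had an antisense count, and for all 119 the count without strand was the same as the sense count.

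**Figure D3:**
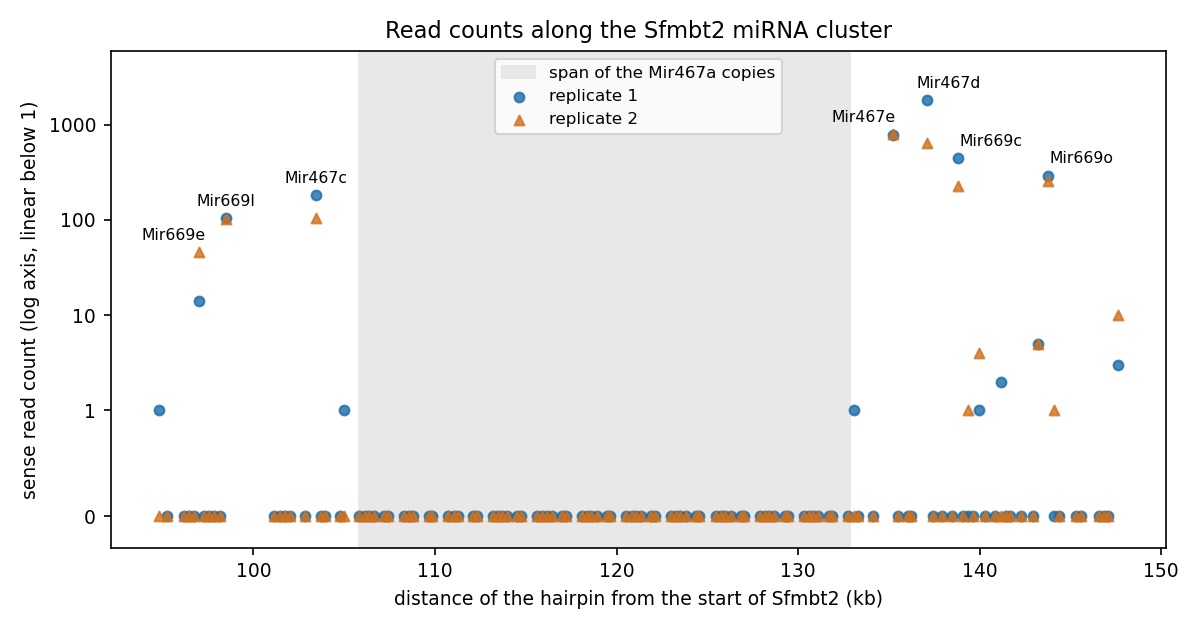
Sense read count in each library (vertical, log axis that is linear below 1) against the distance of the hairpin from the start of Sfmbt2 in kb (horizontal), with a point for each of the 119 genes and library. The shaded span of the Mir467a copies holds 65 genes, all at 0, while the 7 labelled detected genes lie on either side of it.

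The share of a hairpin that can be told from other hairpins followed the same division. For each gene the 20-base windows of its annotated hairpin were searched on both strands of all other annotated miRNA hairpins. The median share of windows found nowhere else was 19.8% in the cluster and 98.0% over all miRNA genes. In the array it was 0%, and 50 of the 65 genes had no unique window at all. Whole hairpins identical to another annotated hairpin were found for 47 of the 119 genes, 45 of them in the array. At the other end, the 7 detected genes had between 37.9% (Mir467d) and 95% (Mir669e) of windows unique. With another hairpin, Mir467d shared up to 60 bases, the longest stretch among the detected genes, and 9 of the 10 Mir467a copies and Gm25022 held it.

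Every counted read of the cluster came from a hairpin with at least 1 unique window. Of the 54 genes with no unique window, none had a count. Of the 65 with some, 16 had counts and 49 had none. A 0 in the first set is not a measurement of the gene. No read of 20 or 22 bases that matched these mm10 hairpins exactly could fit 1 place only. Reads with variants of the wild-derived alleles were not considered. The 49 others include 12 genes with at least 50% of their windows unique, such as Mir669b (87.2%), Mir466h (93.5%), Mir466l (85.3%) and Mir669i (73.1%), chosen after their values were seen. For these a unique window was available and no read was counted, but whether it covers the mature product was not tested. Loci outside the annotated hairpins were not searched, so the shares are upper limits of uniqueness for 20-base windows of the mm10 hairpins only. With windows of 22 bases the cluster median was 21.2%.

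**Figure D4:**
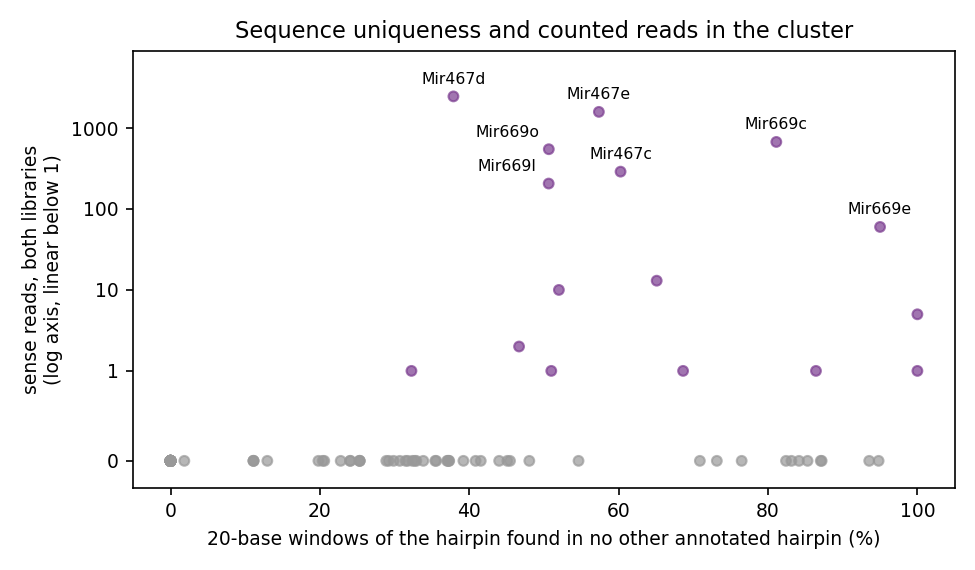
Sense reads of both libraries together (vertical, log axis that is linear below 1) against the share of 20-base windows of the hairpin found in no other annotated hairpin (horizontal, %), with 1 point for each of the 119 cluster genes. All 54 genes at 0% have 0 reads, and genes with reads are spread from 32.3% to 100%.

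The longest stretch shared with any other annotated hairpin was measured on the same hairpins and is not separate evidence. Its median was 42.0 bases in the 16 genes with counts and 83.0 bases in the 103 genes without. The 103 include the 54 genes with no unique window. Over all miRNA genes the median was 20.0 bases. Among the 7 detected genes themselves, the longest shared stretch was 48 bases, between Mir467e and Mir467c, and its median over the 21 pairs was 15.0 bases. Mir467d shared 34 bases with each of Mir467e and Mir467c. These 3 genes are thus separate in the counts only where reads cover bases outside the shared stretch. The genes of a set share sequence and locus and are not replicates, so these values are given with no test.

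The median GC content was 37.3% in the cluster and 50.8% over all miRNA genes. Steps UG, GU, CA and AC made up a median of 50% of the dinucleotides of a cluster hairpin and 27.0% over all genes. Within the cluster this was 48.8% in the detected genes and 50.5% in the genes at 0. Runs of at least 8 bases of alternating U and G or C and A were in 90 cluster hairpins (75.6%), against 12.1% of all. They were in all 7 detected hairpins and in 76 of the 103 at 0 (73.8%), and the median share of bases in such runs was 20% and 10%.

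Family genes at other loci had no counts. The 10 genes named Mir466, Mir467, Mir669 or Mir297 elsewhere, among them Mir466i, Mir466k and Mir467h, had 0 counts in both libraries. Among annotated hairpins theirs were more separable than those of the cluster, with a median of 70.0% of windows unique, and each of the 10 had at least 35.1%. Other loci were not searched here either, so these counts of 0 do not show that the genes were silent. The imprinted Dlk1-Dio3 locus, the other large miRNA cluster compared, is transcribed from the maternal allele. It had 49 of 58 annotated plus-strand genes detected (chromosome 12, 109563692 to 109747960) and 4.09% ± 0.206 of the counts. The median share of unique windows there was 100%, so the 2 clusters differ in what could be counted as well as in the counts. The detected genes of the Sfmbt2 cluster had a median of 69.1 CPM (8.89 to 274), those of Dlk1-Dio3 156 CPM (3.48 to 11882) and all detected genes 130 CPM. The alleles known to be transcribed differ between the 2 loci, and reads were not assigned to alleles here. No test of these differences was made, and the part of counting wild-derived alleles on mm10 in them was not tested.

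Most of the detected genes had more reads in replicate 2 for its depth. Ratios between the libraries were scaled by TMM and tested for each gene by an exact binomial test (two-sided, Benjamini-Hochberg adjusted) over the 434 genes whose counts in both libraries summed to at least 10. This test sets the libraries apart beyond counting error and does not compare conditions. It called 254 genes, 58.5% of those tested, of which 30.2% of those tested were higher in replicate 1 and 28.3% in replicate 2. Of the 119 cluster genes 9 could be tested and 6 were called, a share near that background. Of the 6, 5 were higher in replicate 2 and Mir467d was higher in replicate 1. Over the 9 genes the median log2 ratio (replicate 1 over replicate 2) was -1.11, and over all genes tested it was 0.06. A call together with a difference of at least 2-fold was made for 4 cluster genes, beside 19.6% of all genes tested. With total counts in place of TMM the 4 became 2, Mir669e and Mir669h, beside 25.1% of all genes tested.

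Mir467d was higher in replicate 1 by 1.30-fold, a log2 ratio of 0.38 (95% exact interval 0.25 to 0.51, adjusted p = 2.2e-08 in the exact binomial test). Mir467e was higher in replicate 2 by 2.21-fold, a log2 ratio of -1.15 (-1.29 to -1.0, adjusted p = 4.12e-54 in the exact binomial test). Mir669l was higher in replicate 2 by 2.15-fold and Mir669o by 1.92-fold. The largest ratio was that of Mir669e, 7.04-fold higher in replicate 2 (log2 ratio -2.82, -3.83 to -1.96). Mir669h followed with 6.59-fold from only 3 and 10 counts (log2 ratio -2.72, -5.37 to -0.91). Mir669c (log2 ratio -0.18, adjusted p = 0.192) and Mir467c (-0.35, adjusted p = 0.0791) were not called in the exact binomial test. Mir466n had 5 counts in each library and was not called (adjusted p = 0.392 in the exact binomial test).

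**Figure D5:**
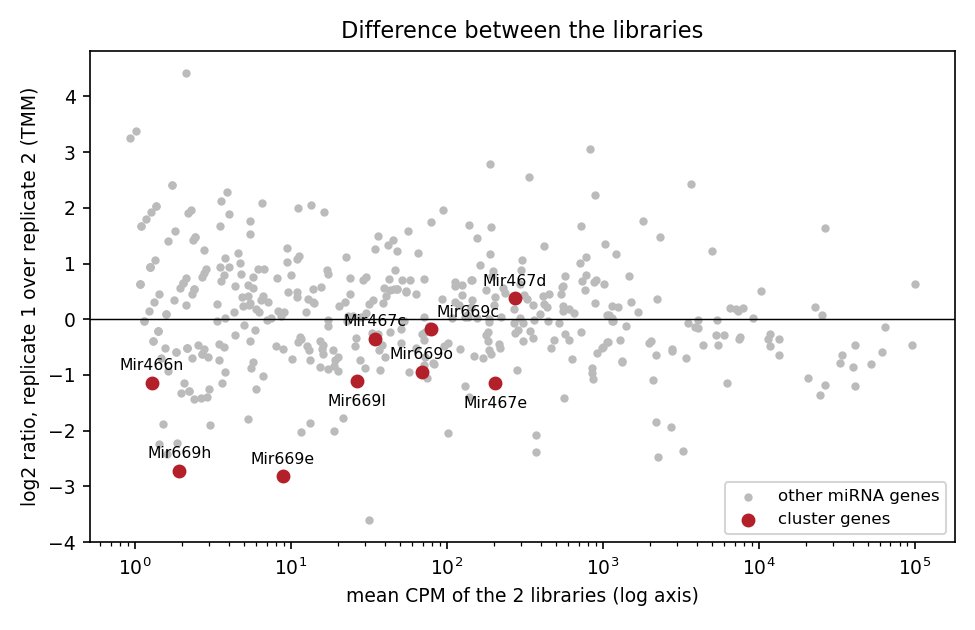
Log2 ratio of replicate 1 over replicate 2 with TMM scaling (vertical) against the mean CPM on a log axis (horizontal) for the 434 genes tested, with the 9 cluster genes in red. Of the cluster genes 8 lie below 0 and Mir467d lies above it.

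The summed reads of the cluster were higher in replicate 2 by 1.32-fold with TMM (log2 ratio -0.40, exact two-sided binomial test, p = 1.34e-23). With total counts as the scale all ratios moved by 0.30 towards replicate 1, and the sum differed by 1.07-fold (log2 ratio -0.09, p = 0.0171 in the exact binomial test). Without Mir467d the sum was 1.85-fold higher in replicate 2. With total counts the same number of cluster genes was called, 1 higher in replicate 1 and 5 higher in replicate 2, beside 62.7% of all genes tested. That background was no longer even, with 43.5% of the genes tested called higher in replicate 1 (189 genes) and 19.1% in replicate 2 (83 genes), while the log2 ratio of Mir669c turned to 0.12 without a call. Against the pooled spread between the libraries, a coefficient of variation of 41.6%, no cluster gene was called by edgeR's exact test. There, 0 of the 434 genes had an adjusted p under 0.05, 24 genes had an unadjusted p under it, and Mir669e was the 1 cluster gene among the 24 (adjusted p = 0.396, edgeR exact test). That spread was estimated from the same 2 libraries it was used to compare, so these counts do not say whether the genes differed.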

How the data were processed

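Small RNA from total RNA of 2 adrenal libraries was sequenced (size range under 30 per the labels). The authors deposited raw counts of reads for each miRNA gene, in 3 columns read here from their totals as counts without strand, sense and antisense, with 4 summary entries that name no gene and that entered neither library sizes nor tests. Together these entries were 61.4% and 59.8% of all reads. The notes deposited with each library give mm10 and GENCODE M21. The aligner, counter and trimming were not given in the sources used here. Reads of the hybrid's wild-derived alleles were counted on mm10, and the effect of this was not tested.

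All 2202 identifiers matched GENCODE M21, which gave names, positions and hairpin sequences. Sequence comparisons used these hairpins, since mature sequences of the cluster genes were not used and no genome sequence was searched. TMM effective sizes and the common dispersion came from edgeR 4.0.16 (R 4.3.3), binomial tests from scipy 1.17.1, adjustment and Wilson intervals from statsmodels 0.14.6. The prior was 0.5 counts and the threshold 0.05. The test was tested on simulated counts that held counting noise only, without the wider spread of the real libraries. The rule for cluster genes uses place only, but the choice of this locus, the comparison locus, the named genes (all detected, the 12 highest and those called) and the tests were chosen with earlier results of these data known. The count of 1 in rank 12 was tied, and every cluster gene with a count is named. Alternatives were other count minimums, scalings and totals, counts without strand, thinning, the pooled spread and leaving out each library. The share of unique windows and the 2-fold rule were added after seeing the data.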

Additional observations from a re-analysis of the deposited data

How the results depend on the processing

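No paired analysis was possible because the series has 1 group. The share of counts held by the cluster was 0.0700%. It became 0.0872% with counts without strand, where only the total changed, 0.0779% with Mir126a left out of the total, and 0.0276% with all reads as the total. Leaving out 1 library gave 0.0678 to 0.0723%. Detected genes numbered 7, and 6 to 10 under the other count minimums and the thinned library, and 7 to 8 with 1 library left out. With replicate 1 thinned, Mir669e fell under the limit with 6 counts. The number of genes called between the libraries was 6, and 5 or 6 under other scalings, filters and strand columns, 4 with a 2-fold minimum, 2 with that minimum and total counts, and 0 with the pooled spread of these 2 libraries (edgeR exact test). The sum stayed higher in replicate 2 under each scaling tried. The family genes elsewhere stayed at 0 under the minimums tried. With 1 library left out no ratio could be had, and matches of mature sequences in the genome were not run.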
